A study of Mus musculus with 10 samples.

Results

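Emp2, Pmp22, Cldn10, Cldn12, Ocln and Tjp1 code for a group of membrane and scaffold proteins of cell contacts, and their transcripts were followed in mouse cortex after Bmal1 deletion in astrocytes. They were picked by gene symbol as EMP/PMP22 tetraspan proteins, claudins outside the endothelium, occludin and a zonula protein, and all 6 were found among the 12575 genes of the expression table. The choice was made with their difference between the groups already known, so that difference is described and not tested. RNA was taken from cortical tissue of C57BL/6 mice that the labels give as 4 months old. There were 5 Cre- mice and 5 Cre-positive mice (BMAL1 aKO), and every animal of either group carried the floxed Bmal1 alleles (Bmal1 fl/fl). BMAL1 aKO mice also carried Aldh1l1-Cre ERT2, a recombinase driven by an astrocyte promoter and active after tamoxifen, and tamoxifen was given to both groups. Each library is 1 mouse. The study's text gives an older age and fewer BMAL1 aKO mice than the labels, which do not say which library was set aside, so all 10 libraries were used.

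Tight junctions seal the space between neighbouring cells. Claudins are multi-pass membrane proteins that form the strands of the junction and set which ions pass, occludin joins them in the strands, and ZO-1, the product of Tjp1, is a cytoplasmic scaffold that ties them to actin. EMP2 and PMP22 are small membrane proteins of the same superfamily as the claudins. EMP2 is known for moving integrins and caveolins to the cell surface, and PMP22 for its place in the myelin of Schwann cells. In brain, claudin-5 belongs to the endothelium of the blood-brain barrier and claudin-11 to myelin, whereas claudin-10 is an astrocyte transcript. BMAL1 is the core transcription factor of the circadian clock and binds DNA at E-boxes.

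Because BMAL1 acts on E-boxes, the promoter windows of the genes that differed most between the groups are shown first. Each is RefSeq sequence of GRCm38.p6, running 5′ to 3′ on the gene's strand from 250 bases before the listed start to 50 bases from it, in lower case, with the start base in capitals. Emp2 lies on the minus strand and has 1 window, chr16:10313919-10314218. Cldn10 lies on the plus strand and has 2, a distal one at chr14:118787621-118787920 and a proximal one at chr14:118854700-118854999, which belong to alternative first exons. In the distal window, the AACGTG that begins 137 bases before the start is also in capitals.
Emp2: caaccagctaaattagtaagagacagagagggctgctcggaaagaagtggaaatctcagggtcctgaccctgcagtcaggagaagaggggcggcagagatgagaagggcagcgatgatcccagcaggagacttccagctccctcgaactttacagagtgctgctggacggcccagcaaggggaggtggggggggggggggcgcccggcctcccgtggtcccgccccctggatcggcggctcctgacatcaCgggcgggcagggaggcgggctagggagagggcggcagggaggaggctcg
Cldn10 distal: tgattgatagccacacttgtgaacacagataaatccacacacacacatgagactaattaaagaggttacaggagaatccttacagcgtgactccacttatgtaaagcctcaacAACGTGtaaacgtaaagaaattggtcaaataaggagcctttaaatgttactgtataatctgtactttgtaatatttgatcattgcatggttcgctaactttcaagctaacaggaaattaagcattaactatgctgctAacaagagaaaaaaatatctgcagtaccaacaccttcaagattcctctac
Cldn10 proximal: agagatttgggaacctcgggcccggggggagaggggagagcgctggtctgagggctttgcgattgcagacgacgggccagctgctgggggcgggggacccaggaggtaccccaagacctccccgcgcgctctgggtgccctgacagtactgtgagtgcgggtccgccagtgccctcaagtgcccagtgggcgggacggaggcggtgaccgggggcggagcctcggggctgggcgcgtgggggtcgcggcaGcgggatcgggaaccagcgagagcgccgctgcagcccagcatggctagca

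The 3 windows differed in composition. The GC content was 65.7% with 16 CpG in the Emp2 window, 72.0% with 27 CpG in the proximal Cldn10 window and 36.0% with 4 CpG in the distal one, beside a median of 52.7% and 7 CpG over the 32851 windows of the RefSeq table. The 6 genes had 13 windows in all. The E-box CACGTG, which reads the same on both strands, was in 0 of the 13, and it was in 7.15% of all windows. The E-box variant CACGTT, or AACGTG on the other strand, was in 1 of the 13, the distal Cldn10 window shown above, and in 4.68% of all windows. These letters were searched only within 300 bases at each start, and a match says nothing about binding.

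The libraries held between 21844770 and 48295715 assigned reads, recovered from the steps of the CPM values. Neuronal markers summed to 6174 to 7575 CPM and astrocyte markers to 7802 to 10443 CPM. Arntl codes for BMAL1. In order of replicate number, its CPM was 34.0, 31.9, 32.2, 37.1 and 35.8 for Cre- mice, while BMAL1 aKO mice gave 35.7, 33.0, 38.8, 31.1 and 33.9 (log2 fold change 0.01, limma adjusted p = 0.932). These reads cover the whole gene in all cells of the cortex, most of which keep Bmal1, so they do not check the labels. The fit weighted Cre- replicate 3 least, at 0.181, and Cre- replicate 1 most, at 7.19. In order of replicate number, the Cre- weights were 7.19, 0.454, 0.181, 0.519 and 1.52. The Cre- side of every fitted fold change below therefore rests mainly on 1 mouse, Cre- replicate 1, although n = 5 in each group. Choroid plexus and ependymal markers, of which 4 of 9 were measured and Folr1, Otx2, Kcnj13, Ccdc153 and Tmem212 were not in the table, had sums of 22.2 to 932 CPM for Cre- and of 17.6 to 1066 CPM for BMAL1 aKO mice. The highest sums, 1066 CPM in BMAL1 aKO replicate 1 and 932 and 288 CPM in Cre- replicates 5 and 4, were mostly transthyretin (Ttr).

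Emp2 and Cldn10 were higher in BMAL1 aKO than in Cre- cortex, each by over 1.5 times in mean CPM, whereas Pmp22, Cldn12, Ocln and Tjp1 lay within 10% of the Cre- mean. The differences of Emp2 and Cldn10 had an adjusted p at or below the study's threshold of 0.1, which makes 2 of the 6 genes against 0.334% of the 12573 genes tested (42 genes, with 36 higher, 0.286%, and 6 lower, 0.0477%). As the genes were chosen on this contrast, nothing is read from that share. All values below are CPM as deposited, and a fold change is the weighted limma estimate on the log2(CPM + 0.5) scale with its standard error. In bulk cortex, a change in the number of cells of a type cannot be told apart from a change in RNA per cell.

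**Figure D1:**
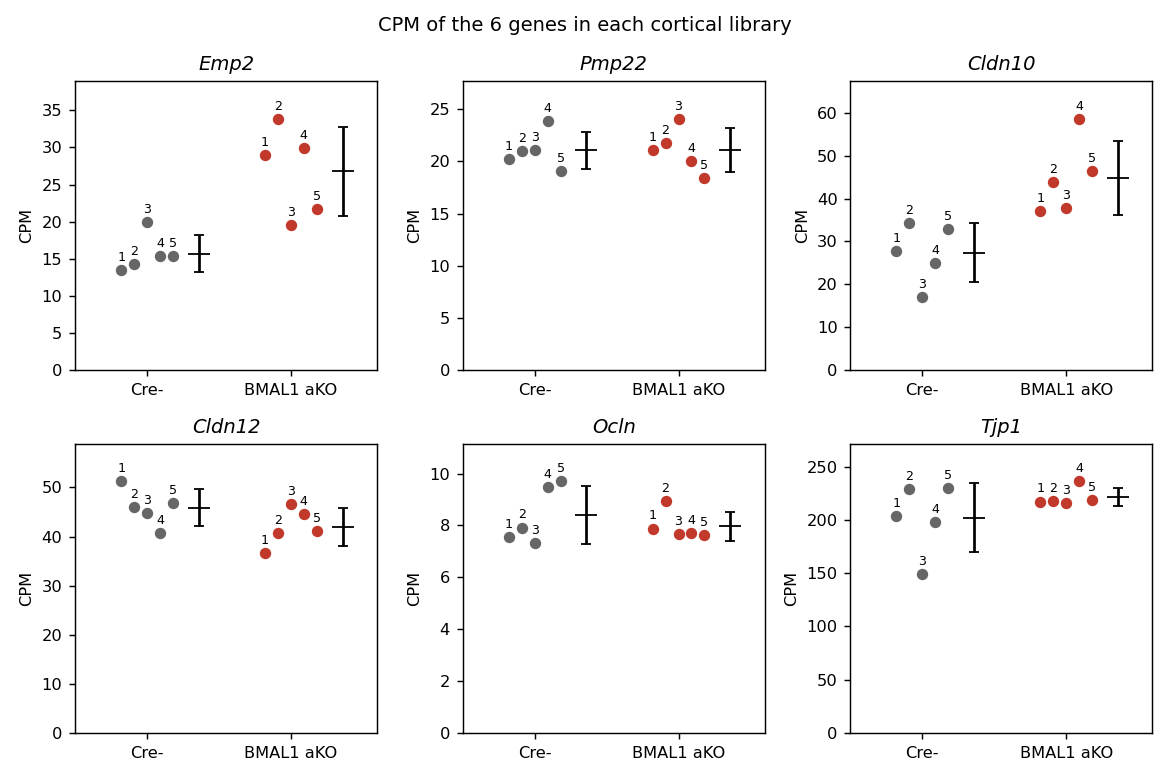
CPM of the 6 genes in each library (y axis, CPM from 0 with its own scale in each panel), with Cre- and BMAL1 aKO mice on the x axis, 1 point per mouse numbered by replicate, and bars for mean and SD. Cldn10 of every BMAL1 aKO mouse lay above all Cre- mice, Emp2 of 4 of 5 did, and the other 4 genes overlapped.

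Emp2 (ENSMUSG00000022505, GRCm38 chromosome 16, 10281749 to 10313968, minus strand) stood at 13.5, 14.2, 19.98, 15.4 and 15.3 CPM in the Cre- mice, listed here and below in order of replicate number. The BMAL1 aKO mice had Emp2 at 29.0, 33.9, 19.6, 29.96 and 21.6 CPM. Of the BMAL1 aKO libraries, 4 of 5 were above every Cre- library, and the groups overlapped only because replicate 3 of BMAL1 aKO was just below replicate 3 of Cre-. The means were 15.7 ± 2.52 and 26.8 ± 5.98 CPM (SD, n = 5 each), a ratio of 1.71, and the fitted log2 fold change was 0.81 (SE 0.13). Without weights the difference was 0.74 (SE 0.16). Each value rested on 311 to 1620 reads.

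Cldn10 (ENSMUSG00000022132, chromosome 14, 118787908 to 118875489, plus strand), a claudin that forms ion-selective channels, stood at 27.7, 34.2, 17.0, 25.1 and 32.8 CPM in the Cre- replicates. It stood at 37.2, 43.9, 37.8, 58.6 and 46.4 CPM in the BMAL1 aKO replicates. The groups did not overlap. The nearest values were those of Cre- replicate 2 and BMAL1 aKO replicate 1, and Cre- replicate 3 was lowest and BMAL1 aKO replicate 4 highest. The means were 27.4 ± 6.88 and 44.8 ± 8.67 CPM (SD, n = 5 each), a ratio of 1.64. The fitted log2 fold change was 0.65 (SE 0.12), beside 0.72 (SE 0.19) without weights. Cldn10 was the only 1 of the 6 genes whose groups did not overlap, as held for 1.0% of all genes tested (0.620% higher in BMAL1 aKO and 0.382% lower).

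The other 4 genes did not pass the threshold. Cldn12 (chromosome 5, 5489537 to 5514958, minus strand), a claudin that lacks the usual tail for binding ZO-1, had 51.2, 46.0, 44.7, 40.6 and 46.7 CPM among Cre- mice, and BMAL1 aKO mice had 36.6, 40.7, 46.6, 44.5 and 41.1. Its values overlapped, with means of 45.9 ± 3.81 and 41.9 ± 3.85 CPM and a fitted log2 fold change of -0.21 (SE 0.08), the largest estimate below 0 among the 6. Without weights the estimate for Cldn12 was -0.13 (SE 0.09), and without Cre- replicate 1 it was -0.08. Pmp22 (chromosome 11, 63128982 to 63159547, plus strand), the relative of Emp2, had 20.2, 20.97, 21.1, 23.8 and 19.1 CPM among Cre- mice, and BMAL1 aKO mice had 21.1, 21.7, 24.1, 20.02 and 18.4. The groups covered nearly the same range, with means of 21.05 ± 1.75 and 21.05 ± 2.11 CPM and a log2 fold change of 0.06 (SE 0.08).

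Ocln (chromosome 13, 100496507 to 100552718, minus strand), the gene of occludin, had the fewest reads of the 6, 173 to 427 per library. Cre- mice had 7.56, 7.92, 7.33, 9.47 and 9.70 CPM, and the BMAL1 aKO values were 7.88, 8.92, 7.66, 7.70 and 7.63. The values overlapped, with means of 8.39 ± 1.11 and 7.96 ± 0.548 CPM and a log2 fold change of -0.02 (SE 0.10). Tjp1 (chromosome 7, 65296165 to 65527781, minus strand) had 204, 229, 150, 198 and 230 CPM among Cre- mice, and BMAL1 aKO mice had 217, 218, 216, 236 and 219. Its BMAL1 aKO libraries lay close together apart from replicate 4, and Cre- replicate 3 was below all the others. The means were 202.2 ± 32.6 and 221.3 ± 8.40 CPM and the log2 fold change was 0.10 (SE 0.07). The coefficient of variation was 16.2% in Cre- and 3.80% in BMAL1 aKO mice. For Pmp22 and Ocln the sign of the estimate depended on the libraries and settings used.

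**Figure D2:**
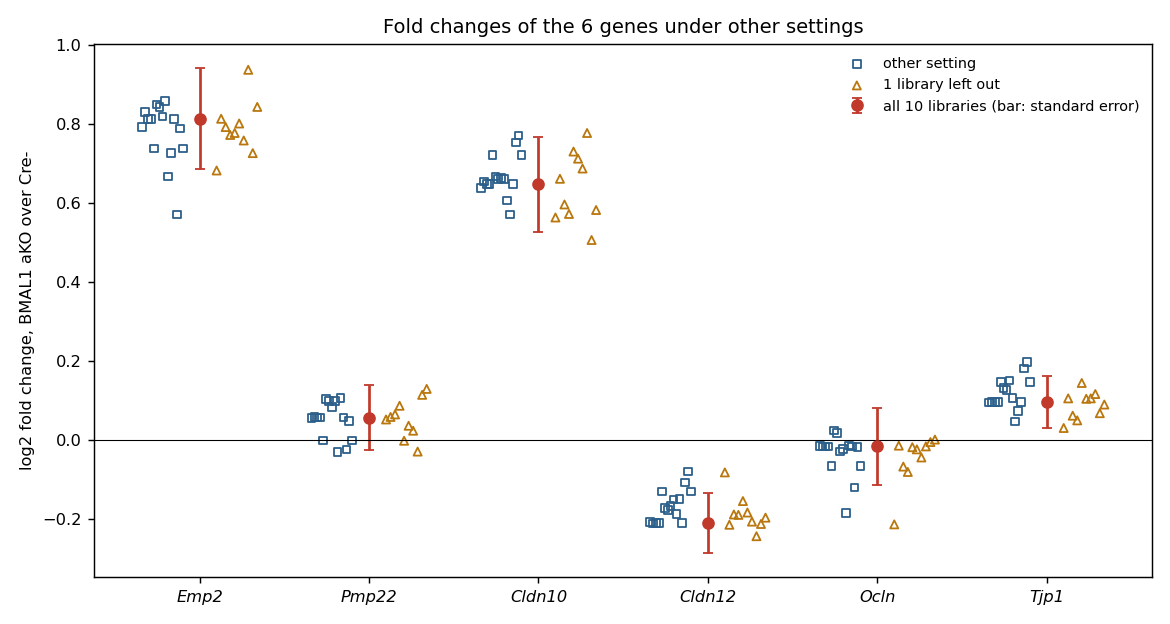
Fitted log2 fold change, BMAL1 aKO over Cre- (y axis, log2(CPM + 0.5) scale except for voom and the pseudocounts of 1 and 0.1), of the 6 genes (x axis) under the reported fit (circles, bars for the standard error) and 25 other settings (triangles with 1 library left out, squares for the rest). Emp2 and Cldn10 stayed above 0 in all 25, Cldn12 stayed below 0 in all 25, and Pmp22 and Ocln lay around 0.

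The estimates for Emp2 and Cldn10 were above 0 in all 25 other settings tried, and their place relative to the threshold was less stable. Emp2 was past the threshold in 17 of the 25 and Cldn10 in 12. All settings draw on the same libraries and on the contrast known when the genes were chosen. Several differ little from the reported fit, so these counts describe the fits and are no test. With 1 library left out at a time, the fold change of Emp2 ran from 0.68 without Cre- replicate 1 to 0.94 without BMAL1 aKO replicate 3, and it was past the threshold in 6 of 10 fits. That of Cldn10 ran from 0.51 without BMAL1 aKO replicate 4 to 0.78 without BMAL1 aKO replicate 3, past the threshold in 4 of 10. Neither passed in the fit without library weights or covariates, nor with the replicate number as a block. The same held when Cre- replicate 1, 4 or 5 or BMAL1 aKO replicate 4 was dropped. Among the fits without weights, Emp2 passed only with the meningeal fibroblast marker level as a covariate, given below, and Cldn10 in none. Only Emp2 passed with BMAL1 aKO replicate 5 or Cre- replicate 3 left out, with sex, read from Xist, as a covariate or with voom. The number of genes called moved with them, from 1 without Cre- replicate 1 to 844 without BMAL1 aKO replicate 3, beside 42 in the reported fit.

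Per kilobase of exon, the order of the 6 genes in Cre- cortex was Tjp1, Cldn12, Cldn10, Pmp22, Ocln and Emp2. Tjp1 stood apart at 25.9 ± 4.18 CPM per kilobase. Cldn12 at 10.8 ± 0.902, Cldn10 at 10.6 ± 2.65 and Pmp22 at 8.94 ± 0.742 CPM per kilobase had overlapping values, as did Ocln at 1.99 ± 0.263 and Emp2 at 1.81 ± 0.291. In BMAL1 aKO cortex the order was Tjp1, Cldn10, Cldn12, Pmp22, Emp2 and Ocln. Cldn10 at 17.3 ± 3.35 CPM per kilobase (14.4 to 22.6) lay above Cldn12 at 9.91 ± 0.910 (8.65 to 11) in every library, and Emp2 at 3.10 ± 0.692 (2.27 to 3.92) above Ocln at 1.89 ± 0.130 (1.81 to 2.11). Cldn12 and Pmp22, at 8.94 ± 0.895 (7.81 to 10.2), overlapped. Each mean is over 5 mice with its SD.

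Beside these genes stood the rest of the claudins and junction genes, listed by role. Of the 20 other claudins, only Cldn5 and Cldn11 were expressed enough to be in the table. Cldn5, the endothelial claudin, had a log2 fold change of -0.08 (limma adjusted p = 0.808), and Cldn11, the claudin of oligodendrocytes, 0.21 (limma adjusted p = 0.300), with 0 of them at an unadjusted p under 0.05 by limma and 1 by voom. In the wider EMP/PMP22 and claudin superfamily, 14 of 25 listed symbols were measured. Emp1 and Emp3, the other EMP genes listed, were not in the table, so they are not covered here. Lhfpl6 is another symbol of the measured Lhfp. None of the 14 measured genes passed, and 1 had an unadjusted p under 0.05 (1 by voom), with a median log2 fold change of 0.01. Those of smallest p were Tmem204, a claudin-like protein of vessels, at 0.26 (limma adjusted p = 0.273), Perp, a desmosome protein, at 0.24 (limma adjusted p = 0.320), and Cacng2, the AMPA receptor subunit stargazin, at 0.18 (limma adjusted p = 0.346). Exons of Cacng2 are overlapped by the opposite-strand gene A730060N03Rik over 5.86% of their length, and the library kit does not mark strand. For comparison, the median over all genes tested was -0.04, 16.8% had an unadjusted p under 0.05 by limma and 10.4% by voom, and voom called 0.231%.

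**Figure D3:**
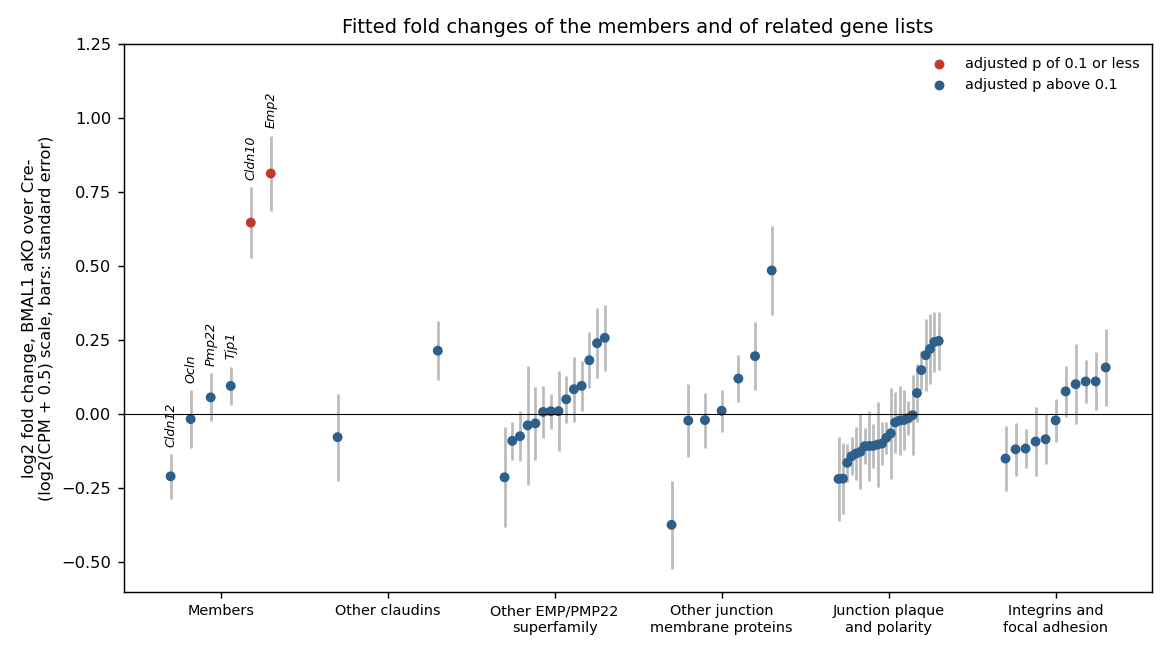
Fitted log2 fold change, BMAL1 aKO over Cre- (y axis, log2(CPM + 0.5) scale, bars for the standard error), of the 6 genes and of 5 lists of related genes (x axis), 1 point per gene and red at an adjusted p of 0.1 or less. Emp2 at 0.81 and Cldn10 at 0.65 stood above the genes of the 5 lists, of which none passed.

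No gene of the remaining 3 junction lists passed either. Of 15 other membrane proteins of tight junctions, 7 were measured, 0 passed by limma and 2 had an unadjusted p under 0.05 (0 and 1 by voom), with a median of 0.01. Esam, an adhesion molecule of endothelial cells, had a fitted log2 fold change of 0.49 (SE 0.15, limma adjusted p = 0.183), although its plain means were close, 9.04 CPM for Cre- and 9.49 for BMAL1 aKO mice. It passed when BMAL1 aKO replicate 3 was left out. Marveld1, a relative of occludin, was at -0.37 (limma adjusted p = 0.240), with means of 7.25 and 5.18 CPM, and F11r, the junctional adhesion molecule JAM-A, at 0.20 (limma adjusted p = 0.393). Without weights F11r was at -0.03, with means of 4.96 and 4.81 CPM. Of 28 plaque and polarity symbols, 24 were measured. Of the rest, Inadl, Pals1 and Mllt4 are other symbols of the measured Patj, Mpp5 and Afdn, and Tjp3 was not in the table. Of the 24, 0 passed and 5 had an unadjusted p under 0.05 (0 and 3 by voom), with a median of -0.07. Amot, an angiomotin scaffold, was at 0.25 (limma adjusted p = 0.238), the polarity kinase Prkci at -0.16 (limma adjusted p = 0.241) and its partner Pard6a at 0.24 (limma adjusted p = 0.259), the last at -0.01 without weights.

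The integrins and focal adhesion partners of EMP2 and PMP22 were all measured, 11 of 11, and 0 passed, with 0 at an unadjusted p under 0.05 by limma or voom and a median of -0.02. Itgb1, which pairs with many alpha chains, was at 0.11 (limma adjusted p = 0.439), Itgb3 at -0.15 (limma adjusted p = 0.484), but at 0.03 without weights, and its partner Itgav at -0.12 (limma adjusted p = 0.378). Exons of Itgav are overlapped over 5.90% by the opposite-strand gene Gm13684.

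Of the 9 lists of cell type markers, only that of astrocytes, the cells in which Cre is active, held genes past the threshold. All 15 astrocyte markers were measured, and 2 were higher, Ntsr2 by 0.47 (limma adjusted p = 0.0210) and the gap junction gene Gja1 by 0.44 (limma adjusted p = 0.0273) on the log2 scale, with a median of 0.09 over the list. Without library weights 0 of the 15 passed. Their sum was 7802 to 9066 CPM for Cre- and 8589 to 10443 for BMAL1 aKO mice. Aldh1l1, which lends Cre its promoter, differed by -0.04 on the log2 scale (limma adjusted p = 0.865). Per 1000 CPM of astrocyte markers, Emp2 was at 1.88 ± 0.385 in Cre- (1.64 to 2.56) and 2.87 ± 0.489 in BMAL1 aKO mice (2.19 to 3.24), a ratio of 1.53. Cldn10 was at 3.24 ± 0.788 (2.18 to 4.25) and 4.84 ± 0.941 (4.14 to 6.23), a ratio of 1.49. On that scale the groups overlapped for both genes. Ocln, which overlapped in CPM, did not overlap here, at 0.916 to 1.07 in Cre- and 0.819 to 0.888 in BMAL1 aKO mice, as held for 3.50% of all genes tested on this scale. The ratios of the other 4 genes were 0.829 for Cldn12, 0.864 for Ocln, 0.907 for Pmp22 and 0.999 for Tjp1. Slc1a2, the main glutamate transporter of astrocytes, made up 46.4% to 58.3% of the marker sum. Its mean was 5259 CPM after deletion against 4541 without it, a ratio of 1.16, not past the threshold (limma adjusted p = 0.298). Fitted fold changes were above 0 for 11 of the 15 markers. Values on this scale therefore depend on a divisor that itself tended to be higher in BMAL1 aKO mice. How much of the Ocln separation comes from the divisor was not tested.

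No gene of the other 8 marker lists passed the threshold by limma or voom. At an unadjusted p under 0.05, limma had 1 gene each of the oligodendrocyte, precursor, microglial and neuronal lists, and voom 3, 1, 3 and 1 of these and 1 mural gene. Endothelial markers (12 of 12 measured) summed to 348 to 451 CPM for Cre- and 342 to 434 for BMAL1 aKO mice, and mural markers (7 of 8) to 216 to 247 and 212 to 264 CPM. Meningeal fibroblast markers (8 of 10, with Lum and Col3a1 not in the table) summed to 132 to 187 CPM with a median of 142 in Cre- and to 104 to 197 CPM with a median of 183 in BMAL1 aKO mice. Oligodendrocyte markers (10 of 10) summed to 3542 to 6281 and 4052 to 5799 CPM, with fitted fold changes above 0 for all 10 and a median of 0.18. Without weights 7 of the 10 were above 0, with a median of 0.06, and Mag was at -0.27. Sums were 130 to 246 and 157 to 185 CPM for oligodendrocyte precursors (5 of 5) and 219.8 to 349 and 220.2 to 301 CPM for microglia (8 of 8), and neuronal markers (8 of 8) had a median of -0.08. Those of choroid plexus and ependyma had a median of -0.53 over the 4 measured. The part of these markers in the values of Emp2 and Cldn10 was tested only as described next.

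A call depends on the spread within groups as well as on the difference, so the choice of the genes may not be free of that spread. The difference itself was known, and taking off the group means keeps it out of a relation. The deviations of each library from its group's mean on the log2(CPM + 0.5) scale were therefore compared, between pairs of the 6 genes and between each gene and the levels of 4 marker lists, each the mean log2(CPM + 0.5) of its markers, in 39 relations over the 10 libraries. With exact permutation within groups, 5 of the 39 had an unadjusted p under 0.05 and 2 an adjusted p of 0.1 or less.

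Within the groups, Emp2 moved with the mean log2 level of the meningeal fibroblast markers, a set of genes of the brain's coverings. Pearson's r was 0.924 (exact permutation p = 0.00111, adjusted p = 0.0217) and Spearman's rho 0.952 (exact permutation p = 0.00167, adjusted p = 0.0325), over 10 libraries. BMAL1 aKO replicates 3 and 5, which were lowest in these markers, with sums of 104 and 112 CPM, also had the lowest Emp2 of their group. Without these 2 libraries r was 0.787 (exact permutation p = 0.025, adjusted p = 0.474), so the relation was past the threshold only with them. Fewer libraries also leave fewer permutations, which limits how small p can be. Marker by marker, r ran from 0.163 for Dcn to 0.932 for Slc6a13, and 6 of the 8 were over 0.5. With the mean log2 level of the meningeal markers as a covariate in a fit without weights, the log2 fold change of Emp2 was 0.74 (SE 0.10) and past the threshold, beside 0.74 (SE 0.16) and not past it without the covariate. With that of the astrocyte markers in its place, Emp2 was at 0.57 (SE 0.13) and Cldn10 at 0.75 (SE 0.21), neither past the threshold. The astrocyte list includes Ntsr2 and Gja1, both called higher in BMAL1 aKO mice, so its level may carry part of the group difference. Both covariates were chosen after the data were seen. The meningeal level already followed Emp2 in these libraries, so the smaller standard error and the pass add no separate support for the difference.

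Cldn10 moved with Tjp1 within the groups (r = 0.913, exact permutation p = 3.5e-04, adjusted p = 0.0135, rho = 0.879, exact permutation p = 4.9e-04, adjusted p = 0.0190, 10 libraries). Cre- replicate 3, with the lowest Cldn10 and the lowest Tjp1 of all libraries, lay farthest below its group's mean in both genes, by -0.63 for Cldn10 and -0.42 for Tjp1 on the log2 scale. Leaving out Cre- replicates 3 and 5, the farthest from the median, r was 0.863 (exact permutation p = 0.00278, adjusted p = 0.108). Neither gene was the other's closest match among all genes tested. Esco1 had r = 0.969 with Cldn10, and Phc3 had r = 0.980 with Tjp1. Whether Cldn10 and Tjp1 share more than variation common to many genes was not tested. The other relations among those tested did not pass the adjustment. Emp2 had r = 0.785 with the mean log2 level of the astrocyte markers (exact permutation p = 0.0223, adjusted p = 0.230) and r = 0.641 with that of the endothelial ones (exact permutation p = 0.0236, adjusted p = 0.230). Pmp22 had r = 0.682 with that of the oligodendrocyte markers (exact permutation p = 0.0371, adjusted p = 0.289). Between Emp2 and Cldn10 themselves r was -0.230.

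**Figure D4:**
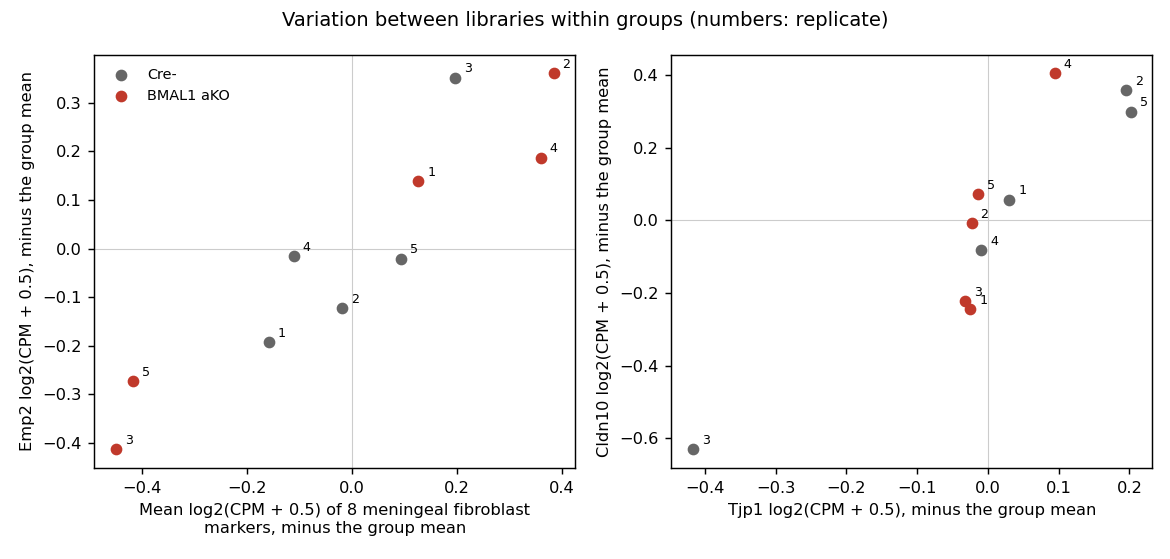
Deviation of each library from its group mean (both axes, log2 units) for Emp2 against the mean log2 level of 8 meningeal fibroblast markers and for Cldn10 against Tjp1, 1 point per library and coloured by group. BMAL1 aKO replicates 3 and 5 lay at the low end for Emp2, and Cre- replicate 3 at the low end for Cldn10.

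The genes whose deviations were most like those of Emp2 over the 10 libraries, among all genes tested, were Plat (r = 0.951), Ddah1 (r = 0.939), Smo (r = 0.939), Cpe (r = 0.939) and Slc22a8 (r = 0.935). Plat codes for tissue plasminogen activator, Smo for the signal transducer of the hedgehog pathway and Slc22a8 for an organic anion transporter. Plat also had a fitted log2 fold change near that of Emp2, 0.76, and Cpe one of 0.04. Those most like Cldn10 were Esco1 (r = 0.969), Acadl (r = 0.969), 2500004C02Rik (r = 0.966), Brinp3 (r = 0.963) and Naf1 (r = 0.962). All of these r are descriptions from the same 10 libraries, picked as the highest of many.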

How the data were processed

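The authors deposited 1 table of CPM, counts scaled to the library's total of assigned reads, for 12575 genes in 10 libraries. Per the labels' processing notes, reads were aligned with STAR 2.5.1a to GRCm38 and counted with featureCounts 1.4.6-p5, and cDNA was made with a kit that does not mark strand. Low genes had been removed, since values sum to 99.1% to 99.3% of the full scale in each library. All values were whole reads within 0.01 read. In R 4.3.3, limma 3.58.1 was fitted to log2(CPM + 0.5) for 12573 genes that exceeded 1 CPM in 4 or more of the libraries, with library quality weights (arrayWeights), a trended prior and Benjamini-Hochberg adjustment, at the study's threshold of 0.1. The scripts were tested on simulated data. Each library is a separate mouse, and no source names a handling batch. Positions are from GENCODE and promoters from RefSeq, both GRCm38, and 12556 symbols matched. Group-centred relations were tested by exact two-sided permutation within groups.

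The genes and lists were chosen with earlier results of these data known. All 6 genes were named, with up to 6 called genes of each of 5 pathway lists or else up to 3 of smallest p. Also named were the 5 genes most like Emp2 and Cldn10, the gene most like Tjp1, Arntl, Aldh1l1, Cldn5 and Cldn11. Marker lists are given as CPM sums and, in the relations and covariates, as the mean log2(CPM + 0.5) of their genes. Alternatives were other scalings, filters, pseudocounts and weights, covariates, voom on the recovered reads and each library left out.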

Additional observations from a re-analysis of the deposited data

Results flagged for a closer look

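In 3 of the 12 sets of 5 libraries (6 genes in both groups), 1 library stood apart by Dixon's ratio of its gap to the whole range, with a limit of 0.71. Emp2 in Cre- replicate 3 was at 19.98 CPM against 15.4 CPM in the next library (ratio 0.716). Ocln in BMAL1 aKO replicate 2 was at 8.92 CPM against 7.88 CPM in the next (ratio 0.807). Tjp1 in BMAL1 aKO replicate 4 was at 236 CPM against 219 CPM in the next (ratio 0.855). Chance marks about 1 in 20 such sets.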

How the results depend on the processing

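The total number of genes called, 42 in the reported fit, was 4 without weights, 68 with TMM scaling and 65 with quantile scaling. It was 22 with sex (from Xist) as a covariate, 20 at a threshold of 0.05 and 1 to 844 with 1 library left out. In the fits without weights it was 5 with the astrocyte marker level, 6 with the meningeal marker level and 4 with TMM, all 3 chosen after the data were seen. With the replicate number as a block, 7 genes were called, neither Emp2 (0.67) nor Cldn10 (0.61) among them, and Ocln was at -0.19. The labels do not say whether libraries of the same number are paired. The correlation of same-numbered deviations ran from -0.625 to 0.364, and 1 of 5 libraries was most like its own number. These values show no pairing but cannot exclude it. Cldn12 was at -0.13 without weights and at -0.08 in the fit that left out weights and used TMM. With 1 library left out, Cldn12 ran from -0.244 to -0.0824, and Ocln from -0.21 to 7.32e-04. The astrocyte markers called, 2 as reported, were 0 without weights, with the block and in the 3 added fits, and 0 to 2 with 1 library left out. The other tight junction membrane proteins, microglial markers and neuronal markers had 0 to 1 called with 1 library left out, 1 each without BMAL1 aKO replicate 3. Of the 2 relations past the threshold, 0 were without their 2 farthest libraries, where fewer permutations also limit how small p can be. The cause was not tested. No estimate of Emp2, Cldn10, Cldn12 or Tjp1 changed sign.

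Some genes of the lists, none of them past the threshold there, turned sign. Without weights, F11r was at -0.0281, Pard6a at -0.0139 and Itgb3 at 0.0309. With the astrocyte marker level added, F11r was at -0.0453, Pard6a at -0.0692, Itgb3 at 0.0534, Tmem204 at -0.0253, Esam at -0.00206 and Itgav at 0.00739. With the meningeal level, F11r was at -0.0281, Pard6a at -0.0139 and Itgb3 at 0.0308. Without weights and with TMM, Prkci was at 0.00660, Itgav at 0.0135 and Itgb3 at 0.0763. Cldn5 was at 0.00546 with voom and ran from -0.186 to 0.0657 with 1 library left out, and F11r from -0.00874 to 0.242.

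The planned count test on recovered reads was not run. Weights did not converge without Cre- replicate 1 or Cre- replicate 5. Ocln, at 173 to 427 reads, had the least depth of the 6 genes.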
